A study of Mus musculus with 20 samples.

Results

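The contacts described here join the 2 flanks of the *Lbx1*/*Fgf8* interval on mouse chromosome 19. A contact belongs to them when 1 of its 5 kb bins lies in the centromeric flank (chr19:44440001-45250000, mm9) and the other in the telomeric flank (chr19:45835001-46400000). This gave 18306 of the 77028 bin pairs of the captured region, and 17967 of them had both bins measured in all 6 maps. The rule uses positions only, and every value below was computed over these 17967 pairs unless stated otherwise. The bins of such a pair lay at least 590 kb and at most 1955 kb apart in the reference order, with the 585 kb interval between them.

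Capture Hi-C was performed on forelimb and hindlimb buds of mouse embryos at E11.5, a method in which crosslinked DNA ends are ligated and the junctions of a chosen region are enriched and sequenced in pairs. The 20 libraries had been merged by the authors into 1 map per genotype. The wild-type map (strain c57bl6.J) and the homozygous *Dup*, *Inv1* and *Inv2* maps pooled 4 libraries each, of which 1 was a technical repeat, while 3 biological samples went into the heterozygous *Inv1* map and 1 into the heterozygous *Dup* map. The mutants were made by CRISPR/Cas9, and the labels give G4 embryonic stem cells, a hybrid line of which C57Bl6 is 1 parent, as the background of every mutant library. For another assay the study describes *Dup* as having a C57Bl6 background, so the background of the *Dup* maps is not settled. Founders of each mouse line in the study, the inversions included, were also crossed to C57Bl6 animals. How far this changed the labelled background of the captured embryos is not given. Genotype and strain background cannot be told apart in a comparison of the inversions with wild-type, nor, where the labels hold, in one of *Dup* with wild-type. The captured cells were those of whole limb buds, a mixture of mesenchyme, ectoderm and migrating muscle progenitors, whose makeup cannot be checked from contact maps. The heterozygous *Dup* map was assigned by its title, because another label of that library names an inversion.

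Loci on the same chromosome meet less often the farther apart they lie along it, and within a topologically associating domain (TAD) they meet more often than across its boundary. The interval holds *Lbx1*, a homeobox gene of migrating muscle progenitors, *Btrc*, which encodes a ubiquitin ligase subunit, and *Fgf8*, a growth factor gene of the apical ectodermal ridge, the signalling ectoderm at the tip of the limb bud. A tandem duplication inside that interval leaves both flanks intact and moves them apart. An inversion inside it leaves the length between them as it was. The question put to the flanks was how contact between them changed when DNA between them was duplicated or turned.

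The ends of the rearrangements set this length, and their reference sequence is shown because every distance comparison below rests on it. The targets of the guide RNAs were found by exact match in mm9, each once in the captured region. The 2 ends of *Dup* lay after base 45251633 and after base 45792725, both intergenic, which makes 541092 bp between the cuts. The first cut was 1.63 kb beyond the centromeric flank and the second 42.3 kb before the telomeric flank. *Fgf8* lay between the second cut and the telomeric flank, so it was not duplicated. *Inv1* turned 123 kb and *Inv2* turned 460 kb, both between the flanks, and *Inv2* shared its second cut with *Dup*. The windows of 60 bases around the *Dup* cuts are given on the plus strand, with the target and its neighbouring PAM in capitals.
*Dup* centromeric end, chr19:45251604-45251663: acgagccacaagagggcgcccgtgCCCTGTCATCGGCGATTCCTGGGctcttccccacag
*Dup* telomeric end, chr19:45792696-45792755: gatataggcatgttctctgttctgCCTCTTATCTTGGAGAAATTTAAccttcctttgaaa
Both targets read on the minus strand, so each run of capitals opens with the reverse complement of its PAM.

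Flank-to-flank contact was lower in homozygous *Dup* than in every other map. It made up 2.43% of the signal in the wild-type map, 1.30% in homozygous *Dup*, 2.13% in heterozygous *Dup*, 3.24% in homozygous *Inv1*, 2.90% in homozygous *Inv2* and 2.90% in heterozygous *Inv1*. The maps in which no length was added between the flanks thus ranged from 2.43% to 3.24%, with wild-type the lowest of the 4, and both *Dup* maps lay below that range. Homozygous *Dup* over wild-type was 0.536 (95% counting interval 0.532 to 0.540) and heterozygous *Dup* over wild-type was 0.873 (0.865 to 0.882). *Inv1* over wild-type was 1.33 (1.32 to 1.34), *Inv2* over wild-type 1.19 (1.19 to 1.20) and heterozygous *Inv1* over wild-type 1.19 (1.18 to 1.20). With the homozygous *Inv1* or *Inv2* map, which carry the same background label as *Dup*, in place of wild-type, homozygous *Dup* stood at 0.403 or 0.449 on the share of the map, and heterozygous *Dup* at 0.657 or 0.732. These rest on 176694 flank-to-flank read pairs in wild-type, 156262 in homozygous *Dup*, 66200 in heterozygous *Dup*, 350450 in homozygous *Inv1*, 344917 in homozygous *Inv2* and 212036 in heterozygous *Inv1*. With 1 merged map per genotype there was no test and no replicate error, and the intervals cover counting error only.

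The share of the map is not the whole account for *Dup*, because the authors' normalization let the bins of the duplication keep a total 2 times that of a flank bin in the homozygous map and 1.5 times in the heterozygous map. The same contacts were therefore also set against the totals of the flank bins. A centromeric flank bin spent on average 3.26% of its signal on the telomeric flank in wild-type, 2.20% in homozygous *Dup* and 3.33% in heterozygous *Dup*. A telomeric flank bin spent 4.56%, 3.10% and 4.68% of its signal on the centromeric flank in the same maps. On this scale homozygous *Dup* over wild-type was 0.677, still below 1, while heterozygous *Dup* over wild-type was 1.02, so its direction in the total over all pairs turned with the scale. In the following, a ratio of signals is on the scale of flank bin totals unless the map total is named.

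The lower contact of homozygous *Dup* was spread over both flanks. In homozygous *Dup*, 271 of 272 measured flank bins had a lower share with the other flank than in wild-type, with bin ratios from 0.458 to 1.02 and a median of 0.708. The bin at 0.458 was the last of the centromeric flank, next to the interval, and the 1 bin above wild-type lay near the far end of the same flank. In homozygous *Inv1* all 272 bins were above wild-type (median ratio 1.28), in *Inv2* 270 bins (median 1.18) and in heterozygous *Inv1* 244 bins (median 1.12). Heterozygous *Dup* was mixed, with 106 bins below and 166 above (median 1.04).

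**Figure D1:**
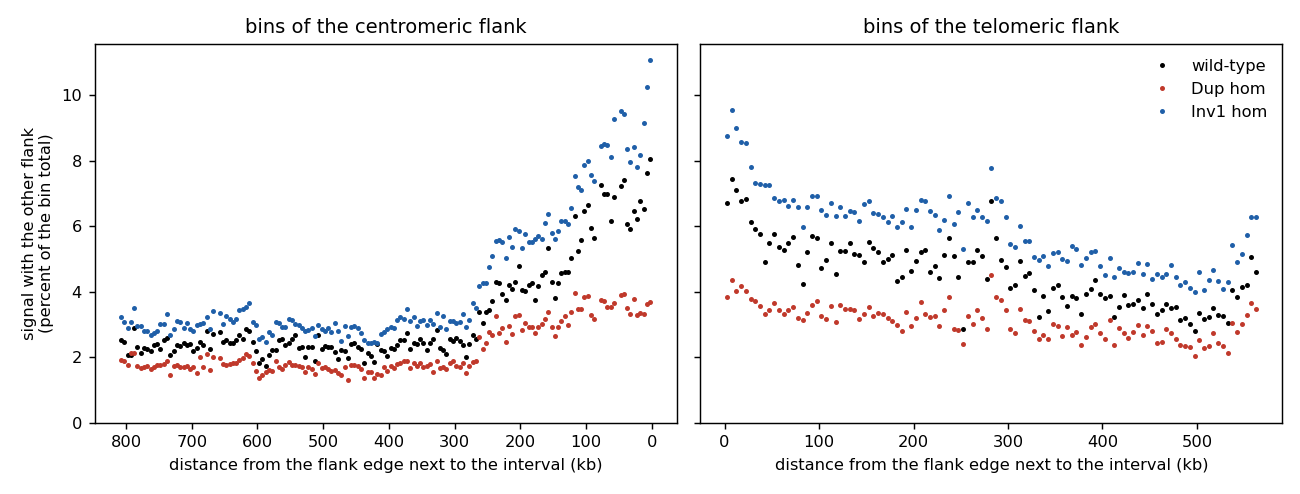
Signal of each flank bin with the whole other flank, as percent of the bin total (vertical axis), against the distance of the bin from the flank edge next to the interval in kb (horizontal axis), for wild-type, homozygous *Dup* and homozygous *Inv1*, 1 point per bin. Homozygous *Dup* lay below wild-type in 271 of 272 bins and homozygous *Inv1* above it in all 272, with higher values near the interval in all 3 maps.

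The loss was graded by distance from the interval. Bins within 100 kb of the centromeric flank edge shared 6.72% of their signal with the telomeric flank in wild-type and 3.57% in homozygous *Dup*, a ratio of 0.531, whereas bins 700 to 800 kb away shared 2.33% and 1.76%, a ratio of 0.756. In the telomeric flank the ratio went from 0.625 in the first 100 kb to 0.739 beyond 500 kb. The homozygous inversion *Inv1* showed no such gradient, with ratios in 100 kb steps from 1.252 to 1.33 in the centromeric flank and from 1.27 to 1.32 in the telomeric flank. The other maps were not all flat. In the telomeric flank *Inv2* went from 1.12 in the first 100 kb to 1.21 beyond 500 kb, and heterozygous *Dup* from 0.888 to 1.14. In the centromeric flank heterozygous *Inv1* fell from 1.29 in the first 100 kb to 1.05 at 700 to 800 kb.

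The wild-type profile of the centromeric flank also held a step, which was picked out after its values were seen. The 10 bins 200 to 250 kb from the edge, which begin at base 45000001 just before *Fam178a*, shared 3.44% to 4.78% of their signal with the telomeric flank (mean 4.08%), and the 10 bins 260 to 310 kb from the edge, on the side of *Pax2*, shared 2.00% to 3.38% (mean 2.55%). *Fam178a*, now *Slf2*, acts in DNA repair, and *Pax2* encodes a paired box transcription factor of kidney, eye and ear development. The near side over the far side was 1.60 in wild-type, 1.56 in homozygous *Dup*, 1.52 in heterozygous *Dup*, 1.65 in homozygous *Inv1*, 1.66 in *Inv2* and 1.75 in heterozygous *Inv1*. These are values at 1 fixed place, where contact also falls with distance in each map, and the position of a step was not searched for in the mutants.

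Contact fell with distance in each map, and least in homozygous *Dup*. Here the signal per bin pair is given on a scale where the mean flank bin total is 10000. In wild-type it went from 9.16 at 590 to 685 kb to 2.14 at 1290 to 1385 kb and then stayed near that level, with 1.94 at 1790 to 1885 kb. The nearest over the farthest of these strata was 4.71 in wild-type, 2.86 in homozygous *Dup*, 3.41 in heterozygous *Dup*, 4.76 in homozygous *Inv1*, 4.40 in *Inv2* and 5.76 in heterozygous *Inv1*.

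The shape of the ratio to wild-type therefore differed between the maps. In homozygous *Dup* it rose from 0.463 (0.444 to 0.484) at 590 to 685 kb to 0.673 at 990 to 1085 kb and 0.764 (0.721 to 0.809) at 1790 to 1885 kb. In heterozygous *Dup* it rose from 0.755 (0.713 to 0.7996) in the nearest stratum to 1.01 at 890 to 985 kb and lay between 1.03 and 1.11 in the strata beyond. Homozygous *Inv1* stayed between 1.24 and 1.33 at all distances. *Inv2* rose from 1.06 (1.03 to 1.10) in the nearest stratum to 1.20 (1.18 to 1.22) at 990 to 1085 kb. Beyond that *Inv2* lay between 1.14 and 1.22. Heterozygous *Inv1* ran the other way, from 1.23 in the nearest stratum and 1.29 in the next to 1.01 (0.950 to 1.06) in the farthest.

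**Figure D2:**
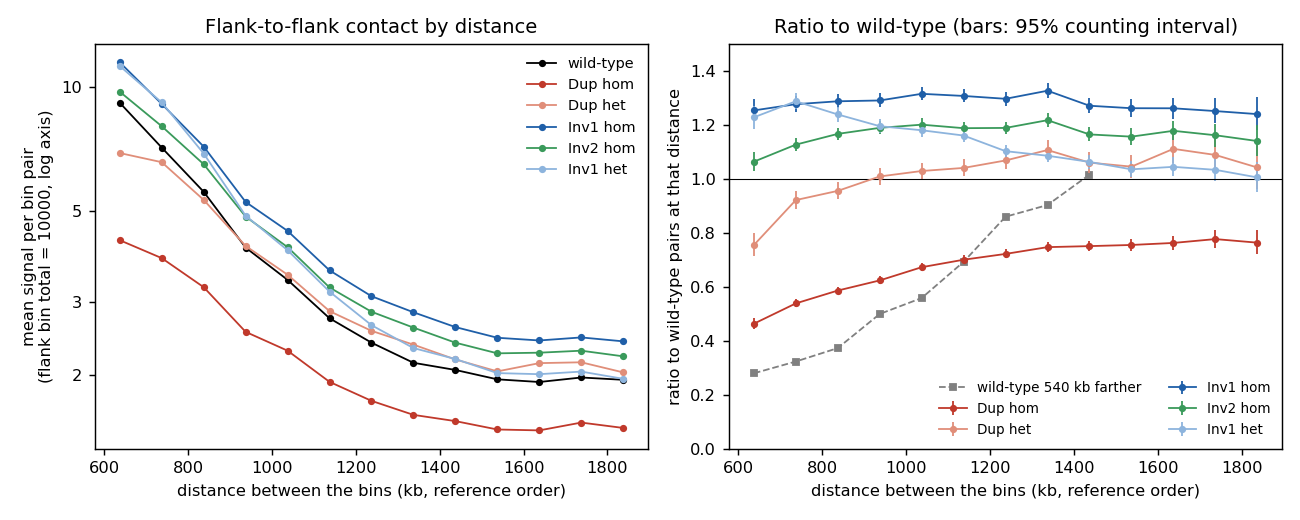
Left, mean signal per flank-to-flank bin pair (vertical, log axis, flank bin total 10000) against the distance between the bins in kb, for the 6 merged maps. Right, the ratio of each mutant to wild-type pairs at the same distance with 95% counting intervals, and in grey the ratio of wild-type pairs 540 kb farther apart to wild-type pairs at that distance, which starts below homozygous *Dup* (0.280 against 0.463) and ends above it.

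The duplication puts 541092 bp more between the flanks, so each *Dup* pair was set beside wild-type flank pairs 540 kb, the nearest whole number of bins, farther apart. At least 20 pairs per distance were available in both for pairs 695 to 1320 kb apart in the reference, 9827 pairs in *Dup* and 9754 at the longer distance in wild-type. On the map total, *Dup* was 0.894 times wild-type at the longer distance (0.884 to 0.904), and on the flank bin totals it was 1.13 times (1.12 to 1.14), so the direction depended on the scale. With *Inv1* or *Inv2* pairs at the longer distance as the reference, the flank bin value was 0.895 or 0.970 and the map total value 0.687 or 0.756, all below 1. Against the same pairs in wild-type, *Dup* stood at 0.516 on the map total and 0.651 on the flank bin totals, and wild-type at the longer distance stood at 0.577. The value at the longer distance in wild-type thus lay between the *Dup* values on the map total and on the flank bin totals.

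The shape differed from that of the added distance on both scales. On the flank bin scale *Dup* held 1.66 times the signal of wild-type pairs 540 kb farther apart at 590 to 685 kb, 1.57 times at 790 to 885 kb, 1.01 times at 1090 to 1185 kb and 0.739 times at 1390 to 1485 kb. At 590 to 685 kb the wild-type pairs 540 kb farther apart stood at 0.280, and *Dup* stood at 0.463 on this scale and at 0.367 on the map total. At 1390 to 1485 kb the wild-type level was the same 540 kb farther on (1.02), and *Dup* stood at 0.751 on the flank bins and 0.594 on the map total. Near pairs thus lost less, and far pairs more, than pairs moved 540 kb along the wild-type curve. The far pairs lay where that curve was level, and there maps without added length could also differ from wild-type. At 1790 to 1885 kb *Inv1* stood at 1.24, *Inv2* at 1.14 and heterozygous *Inv1* at 1.01 on the flank bin scale. Read off that curve, the *Dup* signal at 590 to 985 kb was that of wild-type pairs 219 to 287 kb farther apart on the flank bin scale, and 344 to 539 kb farther apart on the map total. On the flank bin scale the added distance was 240 kb at 990 to 1085 kb and 495 kb at 1090 to 1185 kb.

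Pairs inside the centromeric flank gave a control within each map, since they span the same distances and cross no rearrangement. Between 590 and 760 kb there were 586 flank-to-flank pairs and 869 control pairs. The control signal was 5.24 in wild-type and 5.26 in homozygous *Dup*, a ratio of 1.00, while the flank-to-flank signal was 7.96 and 4.00, a ratio of 0.502. Flank-to-flank over control was 1.52 (1.48 to 1.56) in wild-type, 0.761 (0.742 to 0.780) in homozygous *Dup*, 1.19 (1.14 to 1.24) in heterozygous *Dup*, 1.63 (1.60 to 1.66) in *Inv1*, 1.55 (1.52 to 1.58) in *Inv2* and 1.80 (1.77 to 1.84) in heterozygous *Inv1*. In wild-type, contact across the interval was therefore above contact at the same distance within the flank, and in homozygous *Dup* below it. This quotient does not depend on the map total. Distance was matched but place was not, since control pairs this far apart join the outer and inner ends of the flank across *Pax2*. The telomeric flank, at 565 kb, is too short to hold such pairs.

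**Figure D3:**
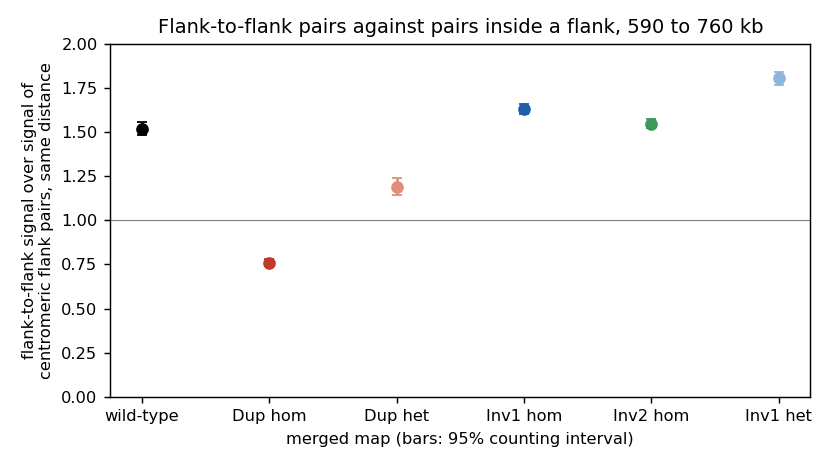
Mean signal of flank-to-flank pairs divided by that of pairs inside the centromeric flank at the same distances (vertical axis, 590 to 760 kb), 1 point per merged map with its 95% counting interval. Homozygous *Dup* is the only map below 1 (0.761), heterozygous *Dup* stands at 1.19, and the 4 maps without added length at 1.52 to 1.80.

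The control signal itself was 1.18 times wild-type in *Inv1*, 1.08 in *Inv2*, 1.07 in heterozygous *Inv1* and 1.09 in heterozygous *Dup*. With it divided out, *Inv1* over wild-type was 1.07 and *Inv2* over wild-type 1.02, against 1.27 and 1.10 without the control. Most of the excess of the homozygous inversions in this window was thus shared by pairs inside the flank. Heterozygous *Inv1* kept 1.19 against 1.27.

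The heterozygote was compared with the equal mix of wild-type and homozygous *Dup*, as it carries 1 allele of each. The mix is the plain mean of both values. On the map total it was not weighted for the larger totals of duplicated bins in the homozygous map. It lay above the mix on each overall scale, with 2.13% of the map signal against 1.87%, a ratio of 1.14 (1.13 to 1.15), and 1.22 times the mix on the flank bin totals. In the control quotient of the nearest pairs the heterozygote at 1.19 was close to the mix at 1.14, a ratio of 1.04. This map is a single library with 3350758 read pairs between the measured bins, the shallowest of the 6, against 7741754 to 13101700 in the others.

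For a finer view the centromeric flank was divided into 9 blocks of 90 kb (C1 to C9) and the telomeric flank into 6 blocks of up to 95 kb (T1 to T6), both counted from the interval outwards. A block ratio to wild-type of at most 0.8 was called lower and of at least its inverse higher, and the same grid over the whole map gave 231 blocks as background. In homozygous *Dup* all 54 flank-to-flank blocks were lower (0.477 to 0.797, median 0.723), and 23.4% of all blocks of the map were lower. These 54 were the whole of that background, as no block inside a flank or touching the interval was called lower. On the map total, where 52.8% of all blocks were lower, the 54 flank-to-flank blocks ranged from 0.377 to 0.631.

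In the other maps the flank-to-flank blocks moved the other way or little. In *Inv1*, 43 of 54 blocks were higher (median 1.29), beside 39.0% of all blocks, in *Inv2* 6 of 54 (median 1.18) beside 21.2%, and in heterozygous *Inv1* 6 of 54 (median 1.09) beside 9.52%. The median ratio over all 231 blocks was 1.19, 1.07 and 1.08 in the same order, so part or most of each rise was shared by the whole map. In heterozygous *Dup* none of the 54 was lower, beside 0.433% of all blocks, and 1 was higher, beside 39.8%. On the map total 8 of the 54 blocks of heterozygous *Dup* were lower, beside 7.36%.

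The low and high ends lay in different places. In homozygous *Dup* the 4 lowest blocks all held C1, the block with *Tlx1*, a homeobox gene needed for the spleen, at 0.477 with T1, 0.503 with T2, 0.515 with T3 and 0.587 with T4. In heterozygous *Dup* the 4 lowest all held T1, the block of *Mgea5* and *Kcnip2*, at 0.811 with C1, 0.835 with C3, 0.875 with C2 and 0.887 with C4. *Mgea5*, now *Oga*, encodes the enzyme that removes O-GlcNAc from proteins, and *Kcnip2* a potassium channel subunit. In heterozygous *Inv1* the 4 highest all held C1, from 1.28 with T5 to 1.36 with T2.

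**Figure D4:**
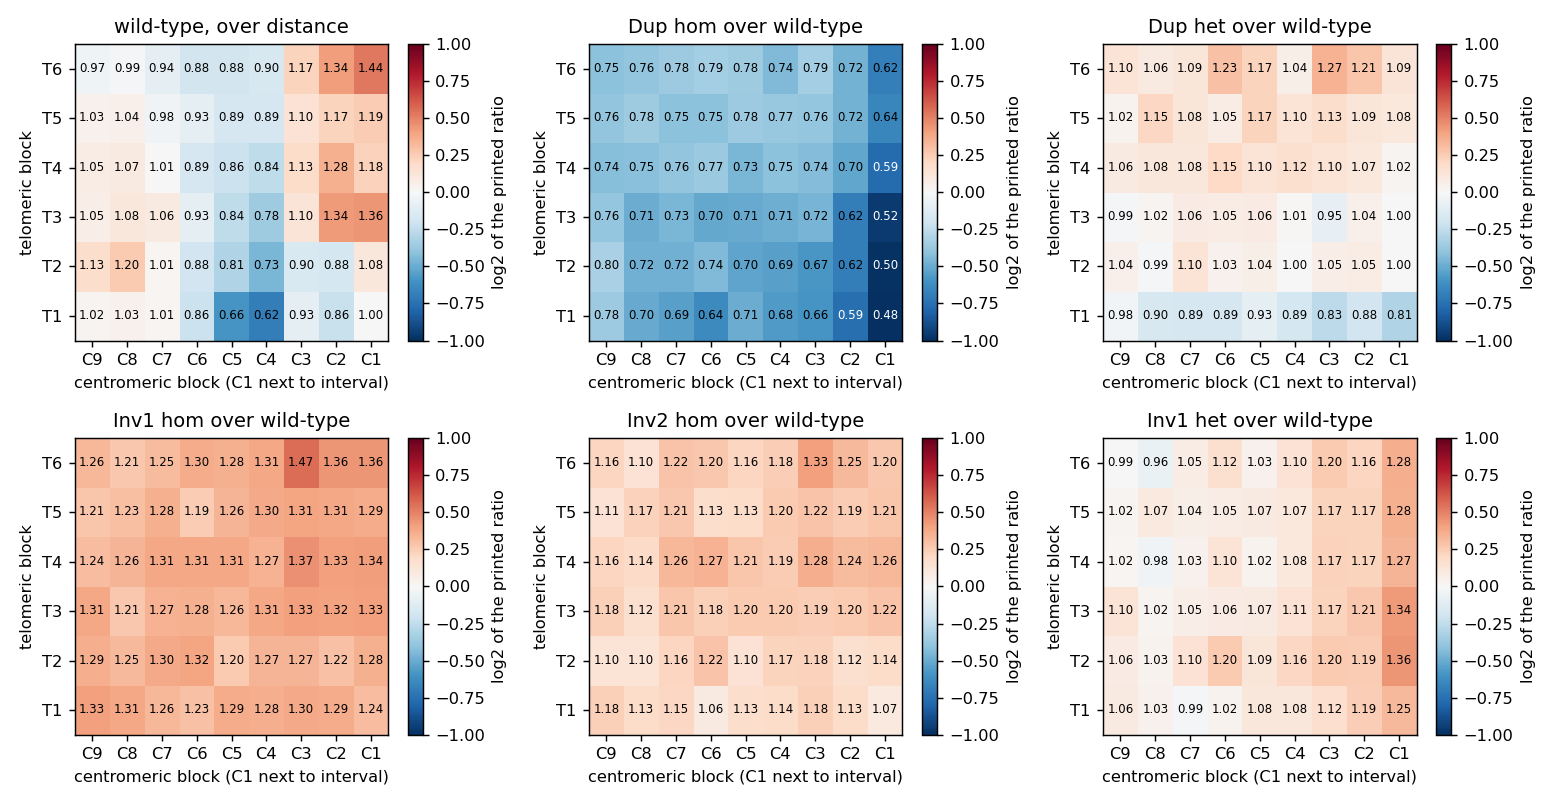
Blocks of flank-to-flank pairs, with centromeric blocks C9 to C1 on the horizontal axis and telomeric blocks T1 to T6 on the vertical axis. The first panel gives the wild-type signal over the mean of flank-to-flank pairs at the same distance and the other 5 the ratio of a mutant to wild-type on the flank bin scale, with colour as log2 of the printed value. All 54 blocks of homozygous *Dup* are at most 0.797, lowest at C1 with T1 (0.477), and those of *Inv1* are at least 1.19.

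Beyond distance, the flanks had a pattern of their own that the rule did not use. To show it, each pair was divided by the mean of all flank-to-flank pairs of its map at that distance. In wild-type the gene-rich part of the centromeric flank from *Fam178a* to *Tlx1* (C1 to C3) with the outer telomeric flank from *Hps6* to *Nfkb2* (T3 to T6) stood at 1.23 (1.22 to 1.24) over 3900 pairs. The blocks of *Pax2* and the gene-poor stretch beside it (C4 and C5) with T1 and T2 stood at 0.706 (0.693 to 0.720) over 1368 pairs. The far group of genes from *Scd1* to *Hif1an* (C7 to C9) stood at 1.04 with the whole telomeric flank.

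This pattern was alike in the 6 maps. For C1 to C3 with T3 to T6 the value was 1.22 in homozygous *Dup*, 1.29 in heterozygous *Dup*, 1.26 in *Inv1*, 1.27 in *Inv2* and 1.29 in heterozygous *Inv1*. For C4 and C5 with T1 and T2 it was 0.729, 0.671, 0.680, 0.672 and 0.663 in the same order. Over the 54 blocks, Pearson's r with wild-type was 0.942 for homozygous *Dup*, 0.937 for heterozygous *Dup*, 0.988 for *Inv1*, 0.978 for *Inv2* and 0.974 for heterozygous *Inv1*, given as a description, since neighbouring blocks share bins. The level between the flanks in homozygous *Dup* was thus lower, with its relief largely kept once distance was divided out. Next to the interval it was flatter. From wild-type to homozygous *Dup*, C1 with T3 went from 1.36 to 1.17 and C1 with T6 from 1.44 to 1.28, while C1 with T1 stood at 0.998 and 0.995.

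Pairs with gene starts stood above the rest over distance, without correction for the block pattern above. Of the measured bins, 13 of 159 in the centromeric and 10 of 113 in the telomeric flank held the start of a protein-coding gene. The 130 pairs with a start in both bins stood at 1.36 (1.29 to 1.44) over distance in wild-type, the 2799 pairs with a start in 1 bin at 1.08 and the 15038 pairs without a start at 0.981. Pairs of 2 start bins stood at 1.28 in homozygous *Dup*, 1.39 in heterozygous *Dup*, 1.35 in *Inv1*, 1.34 in *Inv2* and 1.26 in heterozygous *Inv1*, in each map above both other kinds. In homozygous *Dup* the ratio to wild-type was 0.631 for pairs of 2 start bins and 0.679 for pairs without a start. These 2 ratios are not corrected for distance. Over distance, the interval of the 2-start pairs in homozygous *Dup* (1.21 to 1.35) overlapped that in wild-type.

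The 5 squares of 3 by 3 bins with the highest wild-type contact over distance, out of 16761 and with at least 6 bins between any pair of squares, came from 5 windows of 15 kb. The centromeric windows held *Lzts2*, *Mrpl43* and *Peo1* (chr19:45080001-45095000), *Kazald1* (chr19:45145001-45160000) and no protein-coding gene (chr19:45200001-45215000). The telomeric windows held *Ldb1* and *Pprc1* (chr19:46115001-46130000) and the end of *Nfkb2* with most of *Psd* (chr19:46385001-46400000, the last 3 bins of the map). Whether the position at the end of the map affects the values of the second window was not tested. *Ldb1* encodes a cofactor that bridges enhancers and promoters, and *Pprc1*, which starts 328 bp away on the other strand, a transcriptional coactivator of mitochondrial genes. *Peo1*, now *Twnk*, encodes the mitochondrial DNA helicase, and *Mrpl43*, which starts 369 bp away on the other strand, a mitochondrial ribosomal protein. *Lzts2* encodes a regulator of beta-catenin, *Kazald1* a secreted matrix protein, *Nfkb2* an NF-kappaB subunit and *Psd* an exchange factor of small GTPases.

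The *Lzts2*/*Mrpl43*/*Peo1* window with the *Ldb1*/*Pprc1* window, 1035 kb away, stood at 2.72 (2.30 to 3.22, 143 read pairs) over distance in wild-type. It stood at 2.54 (131 read pairs) in homozygous *Dup*, 2.61 (45 read pairs) in heterozygous *Dup*, 2.16 in *Inv1*, 2.40 in *Inv2* and 2.34 in heterozygous *Inv1*. This square ranked 1 in homozygous *Dup* as in wild-type, and no lower than 17 in any map. Its signal in homozygous *Dup* was 0.630 times wild-type, so it lost contact with the rest and kept its place above it.

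The other 4 squares were lower in most mutants than in wild-type, the map they were chosen in, where the values are a description. *Kazald1* with *Ldb1*/*Pprc1* went from 2.65 in wild-type to between 1.80 and 2.39 in the mutants, *Kazald1* with *Nfkb2*/*Psd* from 2.54 to between 2.07 and 2.61, and *Lzts2*/*Mrpl43*/*Peo1* with *Nfkb2*/*Psd* from 2.48 to between 1.79 and 2.62. The window without a gene with *Nfkb2*/*Psd* went from 2.41 to between 1.29 and 2.10, the lowest in heterozygous *Dup* from 29 read pairs (0.873 to 1.91).

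**Figure D5:**
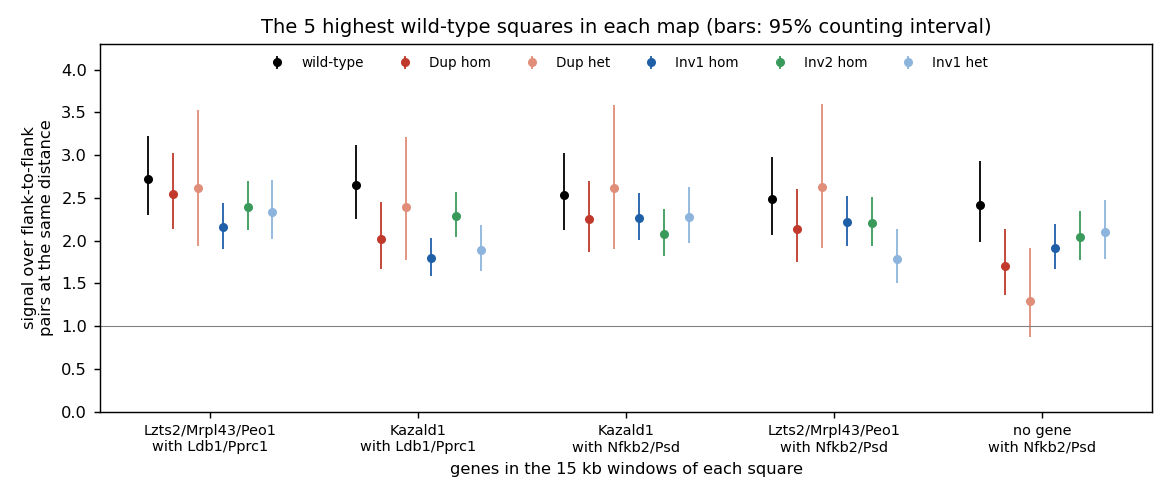
Signal of the 5 highest wild-type squares of 3 by 3 bins over flank-to-flank pairs at the same distance (vertical axis), 1 point per merged map with its 95% counting interval, named by the genes in the windows. All lie above 1 except that the interval of the square without a centromeric gene reaches below 1 in heterozygous *Dup* (1.29, 0.873 to 1.91).

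The bases just upstream of the *Mrpl43*, *Lzts2*, *Kazald1* and *Ldb1* starts in these windows are shown. They are given because the squares that join such starts, at 2.72 and 2.65, stood highest over distance in wild-type. The other squares used the *Nfkb2*/*Psd* window, which holds no protein-coding start. Each is 100 bases of the mm9 reference, 5′ to 3′ on the strand of the gene and ending 1 base before its start, with every CG dinucleotide in capitals.
*Mrpl43*, chr19:45080933-45081032, minus strand, in an intron of *Peo1*: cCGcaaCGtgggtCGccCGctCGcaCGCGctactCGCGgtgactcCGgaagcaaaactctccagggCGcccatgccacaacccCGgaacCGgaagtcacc
*Lzts2*, chr19:45089566-45089665, plus strand, intergenic: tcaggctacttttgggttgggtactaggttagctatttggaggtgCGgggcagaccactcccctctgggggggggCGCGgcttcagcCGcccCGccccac
*Kazald1*, chr19:45149631-45149730, plus strand, intergenic: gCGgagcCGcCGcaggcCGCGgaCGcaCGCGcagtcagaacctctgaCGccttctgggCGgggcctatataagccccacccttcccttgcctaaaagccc
*Ldb1*, chr19:46119705-46119804, minus strand, in an intron of *Pprc1*: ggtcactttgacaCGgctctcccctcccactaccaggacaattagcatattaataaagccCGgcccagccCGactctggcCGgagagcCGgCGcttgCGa
They held 13 CG dinucleotides for *Mrpl43*, 5 for *Lzts2*, 10 for *Kazald1* and 7 for *Ldb1*. *Peo1* and *Pprc1*, which also start in these windows and are not shown, held 12 and 6. Over the 6 protein-coding starts in the windows the median was 8.5 (5 to 13), and over the 21 other starts of the flanks it was 6 (0 to 14), so the ranges overlapped. *Tlx1* and *Wnt8b* held 0 in the same window, a statement about these 100 bases alone.

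Of 24 listed genes, 21 had their start in a measured flank bin, and all 21 start bins shared less of their signal with the other flank in homozygous *Dup* than in wild-type (ratios 0.561 to 0.777, median 0.693). This is close to the median of 0.708 over all 272 flank bins. All 21 were above wild-type in *Inv1* (median 1.28), 20 in *Inv2* (median 1.18), 17 in heterozygous *Inv1* (median 1.07) and 12 in heterozygous *Dup* (median 1.04). The 7 developmental regulators among them had a median ratio of 0.691 in homozygous *Dup* and the 14 other genes 0.698, so the groups did not stand apart.

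*Tlx1*, 26.3 kb from the interval, shared 6.48% of its bin signal with the telomeric flank in wild-type, 3.78% in homozygous *Dup*, 6.22% in heterozygous *Dup*, 8.41% in *Inv1*, 7.35% in *Inv2* and 8.48% in heterozygous *Inv1*. Its ratio in homozygous *Dup* was 0.583 (0.533 to 0.637), and the counting intervals of homozygous *Dup* and wild-type did not overlap.

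*Wnt8b*, a Wnt ligand gene at 682 kb from the interval, shared 2.38% in wild-type, 1.72% in homozygous *Dup*, 2.69% in heterozygous *Dup*, 3.04% in *Inv1*, 2.80% in *Inv2* and 2.50% in heterozygous *Inv1*. The ratio in homozygous *Dup* was 0.720 (0.650 to 0.798), nearer to 1 than that of *Tlx1*. *Scd1*, which encodes a fatty acid desaturase and lies still farther out, had 2.26% in wild-type and 1.73% in homozygous *Dup*, a ratio of 0.765.

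*Ldb1* had the highest share over distance of the listed starts in wild-type, at 1.55, and stood at 1.50 in homozygous *Dup*, 1.51 in heterozygous *Dup*, 1.36 in *Inv1*, 1.38 in *Inv2* and 1.21 in heterozygous *Inv1*. Its bin shared 6.78% of its signal with the centromeric flank in wild-type and 4.53% in homozygous *Dup*, a ratio of 0.668 (0.609 to 0.733). In homozygous *Dup* this was the highest share of all flank bins. *Kazald1* followed in wild-type with 1.38 over distance and a *Dup* ratio of 0.592.

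*Pax2* stood below its distance in every map, with 0.903 in wild-type, 0.779 in homozygous *Dup*, 0.829 in heterozygous *Dup*, 0.707 in *Inv1*, 0.715 in *Inv2* and 0.726 in heterozygous *Inv1*. Its ratio to wild-type was the lowest of the listed starts in both homozygous inversions, 1.01 in *Inv1* (0.906 to 1.13) and 0.931 in *Inv2* (0.831 to 1.04), with intervals that included 1. In homozygous *Dup* its ratio was 0.619 (0.541 to 0.708). The *Pax2* bin held 2.42% from 500 read pairs in wild-type, above the 1.87% and 2.22% of the bins on either side. How far the wild-type value of this single bin set these ratios was not tested.

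In the telomeric flank, *Mgea5*, the first start after the interval, shared 6.85% with the centromeric flank in wild-type, 4.02% in homozygous *Dup* and 5.32% in heterozygous *Dup*. It was the lowest of the listed starts in heterozygous *Dup*, at 0.776 (0.712 to 0.846). *Hps6*, a gene of lysosome-related organelles, had the lowest ratio of the listed starts in homozygous *Dup*, 0.561 (0.504 to 0.624), with 5.09% in wild-type and 2.85% in *Dup*. *Nfkb2*, near the outer end of the map, had 3.85% and 2.78%, a ratio of 0.722 (0.667 to 0.782).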

How the data were processed

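Capture Hi-C reads of the 20 libraries were trimmed, mapped to mm9 with HiCUP and Bowtie2 2.4.2, filtered, deduplicated and merged per genotype by the authors. For wild-type and the inversions the deposited file gives contact signal, KR-balanced by the authors (Juicer 1.19.02) so that bins share 1 total. The deposited signal of the *Dup* maps was normalized with LOIC, which keeps a higher total in duplicated bins. Tool versions are from the submitters' processing notes. The authors' subtraction maps hold differences after joint scaling of each distance and were not used.

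From the signal, the factor of each bin was solved and divided out, which gave whole read pairs for 100% of values within 0.01 in each map and the counting intervals (95%). Bins without values in any map were left out, which kept 387 of 392 bins. Ratios used shares of the map total or of flank bin totals. Genes and coordinates are from GENCODE vM1 and the mm9 genome. The analysis used Python 3.11.15, numpy 2.4.6 and matplotlib 3.10.9 and was tested on simulated data. The members and gene lists were chosen with earlier results of these data known. Named genes are the start bins of a fixed list of 24 genes and the genes of the 5 highest wild-type squares.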

Additional observations from a re-analysis of the deposited data

Results flagged for a closer look

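The flank-to-flank share over wild-type moved in opposite directions in the duplication and in the inversions, with 0.536 in homozygous *Dup*, 1.33 in homozygous *Inv1* and 1.19 in homozygous *Inv2*. On the map total the median block ratio over all 231 blocks of the map moved the same way, at 0.794, 1.23 and 1.09 in the same order. Over the 54 flank-to-flank blocks it was 0.572, 1.33 and 1.20. Each genotype is 1 merged map, so the difference was not tested.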

How the results depend on the processing

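Every value here is a ratio with 1 merged map on each side. Homozygous *Dup* over wild-type (0.536) stayed below 1 throughout, at 0.521 with the total taken over pairs at least 25 kb apart, 0.526 from read pairs without balancing, 0.560 with the 50 kb next to the interval left out, 0.693 relative to signal inside the flanks, 0.712 after balancing to equal bin totals and 0.972 with each distance scaled jointly. Joint scaling removes the difference by construction, since most pairs left at these distances join the flanks. Heterozygous *Dup* (0.873) was 0.903 without the 50 kb and 0.989 with joint scaling, and turned to 1.01 relative to signal inside the flanks, 1.02 after balancing and 1.02 on flank bin totals. Pairs over 25 kb, unbalanced read pairs, signal inside the flanks and joint scaling gave 1.19, 1.34, 1.38 and 1.00 for *Inv1* (1.33), and 1.04, 1.21, 1.22 and 1.01 for heterozygous *Inv1* (1.19), which was 1.17 without the 50 kb. For *Inv2* (1.19) pairs over 25 kb gave 1.14, signal inside the flanks 1.22 and joint scaling 0.9998, just below 1.

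*Dup* over wild-type pairs 540 kb farther apart (0.894) was 0.846 without the 50 kb, and turned to 1.20 after balancing, 1.16 relative to signal inside the flanks and 1.13 on flank bin totals. The heterozygote over the mix (1.14) was 1.19, 1.20 and 1.22 on these scales. Flank bin totals gave 0.677 for homozygous *Dup*. Flank bin totals and the inversion maps as references were chosen after seeing the data. The inversion references gave 0.403 and 0.449 for homozygous *Dup*, 0.657 and 0.732 for heterozygous *Dup*, and 0.687, 0.756 and, on flank bin totals, 0.970 for pairs 540 kb farther apart. No paired analysis was possible because the replicates were merged before deposit, and no replicate could be left out. Depth limits single pairs, with a median of 3 read pairs in heterozygous *Dup* and 7 to 15 in the other maps.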
